A study of Mus musculus with 8 samples.

Results

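The stretch of mouse chromosome 17 from chr17:35100001-35200000 (mm9) lies in the class III region of the major histocompatibility complex and holds the genes Hspa1a, Hspa1l, Lsm2, Vars, Msh5, Clic1 and Ddah2. It was chosen by the difference between the male parents, of which B6 was more methylated than DBA at a group of CGs there. That difference between the male parents is therefore given below as a description, and it is set against the female parents and the F1 mice, which the choice did not use. Of the 1411453 CGs with at least 10 reads in some mouse, 378 lay in this window. Of the 176951 CGs with 10 reads in all 8 mice, 59 did.

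Liver methylation was measured by reduced representation bisulfite sequencing (RRBS), in which DNA is cut by MspI at CCGG and size-selected, bisulfite turns unmethylated cytosines into uracil, and the methylation level of a site is the percent of its reads that still show C. The 8 livers came from 1 female and 1 male each of the inbred parents C57BL/6J (B6) and DBA/2J (DBA), of BXD F1 mice with a B6 mother and a DBA father, and of DXB F1 mice with a DBA mother and a B6 father. All were 16 weeks old and had been fasted for 16 h. None carried a transgene or received a drug, and whole liver was used, so the cell types cannot be told apart. Each strain has 1 mouse of each sex, so intervals and tests between parents hold counting error only and no spread between mice of a strain.

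Unlike classes I and II, class III of the complex holds few genes of antigen presentation and many with other tasks. Hspa1a and Hspa1l encode Hsp70 chaperones, which bind unfolded proteins. Hspa1a and its neighbour Hspa1b are near-identical heat-inducible copies, and Hspa1l is a related gene best known from the testis. Lsm2 is a subunit of the LSm ring that binds U6 RNA and decaying mRNA, Vars charges tRNA with valine, Msh5 is a MutS homolog of meiotic recombination, Clic1 is a chloride intracellular channel protein, and Ddah2 belongs to the family that breaks down methylated arginines. CG islands at the starts of housekeeping genes are usually free of methylation, while gene bodies are usually methylated.

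Between the male parents, 15 of 100 CGs with 10 reads in both mice were called as more methylated in B6, and 0 in DBA. A call needed each level to lie outside the exact 95% binomial interval of the other and a difference above 50 percentage points. By the same rule 0.312% of all CGs of the genome were called higher in B6 between the male parents. All 15 calls fell in 1 cluster of 160 bp, chr17:35115245-35115404, in the coding exon of Hspa1l (ENSMUSG00000007033.3, plus strand) and antisense to an exon of the lincRNA gene Gm10501. The cluster lay within a single MspI fragment of 179 bp, chr17:35115245-35115423, with 7 of the called CGs read on the plus strand and 8 on the minus strand. On the plus strand these were cg35115245, cg35115266, cg35115272, cg35115286, cg35115288, cg35115290 and cg35115309, and on the minus strand cg35115348, cg35115360, cg35115372, cg35115378, cg35115381, cg35115387, cg35115399 and cg35115404, each named by its position. None of the other 6 genes held a call.

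The sequence of this fragment is shown because the neighbouring Hsp70 genes hold nearly the same one. Sequences are of NCBIM37 (mm9), on the coding strand of each gene, which is plus for Hspa1l and minus for Hspa1a and Hspa1b, and CGs are in capitals. The Hspa1a segment is chr17:35107385-35107563 and that of Hspa1b, just outside the window, is chr17:35094467-35094645.

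Hspa1l: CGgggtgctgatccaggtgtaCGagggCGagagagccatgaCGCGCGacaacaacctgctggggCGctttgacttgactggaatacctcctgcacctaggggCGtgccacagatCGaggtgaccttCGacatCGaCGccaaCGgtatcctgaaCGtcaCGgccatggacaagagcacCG

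Hspa1a: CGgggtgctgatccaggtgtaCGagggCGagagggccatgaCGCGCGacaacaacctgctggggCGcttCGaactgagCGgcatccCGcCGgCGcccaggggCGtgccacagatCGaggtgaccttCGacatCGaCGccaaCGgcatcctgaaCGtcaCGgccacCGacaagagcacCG

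Hspa1b: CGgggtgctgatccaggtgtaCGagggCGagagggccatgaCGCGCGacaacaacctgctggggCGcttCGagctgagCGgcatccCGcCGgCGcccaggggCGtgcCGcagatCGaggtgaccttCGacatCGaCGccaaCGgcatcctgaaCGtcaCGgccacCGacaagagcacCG

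All 16 CGs of the Hspa1l fragment are also present in the other two genes, which hold 22 and 23 CGs. Of the 179 bases, 91.6% were identical between Hspa1l and Hspa1a and 91.1% between Hspa1l and Hspa1b. When every C is read as T, as in a converted read, the first 76 bases of each gene differ from those of Hspa1l at 2 positions. From the other end, the last 76 bases differ at 3 positions.

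Methylation of the fragment was high in 7 mice and low in the DBA male. At cg35115266, for example, 84 of 94 reads were methylated in the B6 male (89.4%) and 13 of 92 in the DBA male (14.1%). At the same CG the B6 female had 91.4%, the DBA female 93.2%, and the level was 77.8% in the BXD female, 96.5% in the BXD male, 84.8% in the DXB female and 76% in the DXB male. The DBA male thus stood apart from the mouse of its own strain as well as from B6. On the minus strand, at cg35115404, the levels were 81.8% in the B6 male, with 18 of 22 reads, and 6.67% in the DBA male, with 2 of 30 reads. The 6 other mice lay between 79.3% (DXB female) and 100% (DBA female) at this CG, so the low value was again that of the DBA male only.

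**Figure D1:**
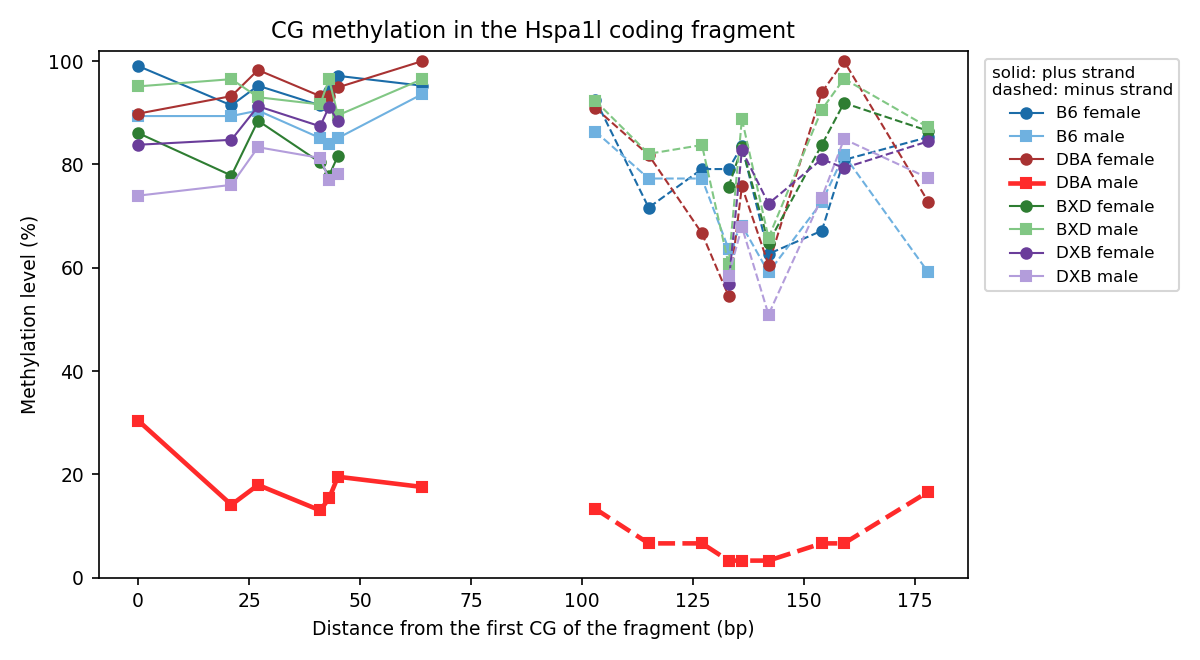
Methylation level (%) of each CG of the Hspa1l fragment against its distance from the first CG (bp), by mouse, with circles for females, squares for males, solid lines for the plus and dashed lines for the minus strand. The DBA male lies between 3.33% and 30.4% at the 15 called CGs, and each of the other 7 mice lies above 50% at every one of them that was measured.

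Of the 15 called CGs, 11 had 10 reads in all 8 mice. Their mean level was 85.6% in the B6 female, 79.0% in the B6 male, 86.1% in the DBA female, 12.2% in the DBA male, 81.1% in the BXD female, 87.7% in the BXD male, 81.7% in the DXB female and 73.2% in the DXB male. Without the DBA male the mean was 82.1% ± 4.99 (SD, n = 7). The difference of B6 minus DBA was 66.8 points in males and -0.50 points in females. At the 15 CGs the male differences ran from 55.8 to 76 points with a median of 70.6. The calls nearest to the threshold were cg35115387 at 55.8 and cg35115245 at 58.9 points. The closest CG outside it was the last of the fragment, cg35115423, with 59.1% in the B6 male, 16.7% in the DBA male and a difference of 42.4 points.

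The calls did not recur between the female parents. All 15 CGs were measured in both, 8 were higher in the B6 female and 7 in the DBA female, and 0 were called. The share of CGs called higher in B6 between the female parents over the genome was 0.498%, and in the window 0 of 272 tested CGs were called in either direction. The female differences at the 15 CGs ran from -26.8 points at cg35115399 to 24.6 points at cg35115378, with a median of 1.07. None passed Fisher's exact test of the reads, for which the lowest p-value adjusted over all CGs of the genome (Benjamini-Hochberg) was 0.138. With 0 calls among the female parents there was nothing to look up in the males in the opposite direction.

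Of the 4 F1 mice, 3 lay above both male parents, and the DXB male, at 73.2%, lay between them and close to the B6 male. Over the 11 CGs the mean of the 4 F1 mice was 80.9% ± 5.93 (SD, n = 4), against a midpoint of 45.6% between the male parents. Set on a scale with the DBA male at 0% and the B6 male at 100%, the F1 mice stood at 103% ± 8.88, from 91.4% to 113%. The 2 parents' strain means, 82.3% for B6 and 49.2% for DBA, differed through the DBA male, since the DBA female was at 86.1%. An exact permutation test of the 4 F1 mice against the parents of 1 strain cannot reach 0.05. No read with a SNP covered the fragment in any mouse, so the B6 and the DBA chromosome of the F1 mice could not be told apart there.

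A slope on the number of B6 chromosomes (0, 1 or 2) was fitted with edgeR's quasi-likelihood test to the female parents and the 4 F1 mice, which leaves out the male parents. Only the DBA female had 0 and only the B6 female had 2, while every F1 mouse had 1. The limma slope at a CG is thus set by the difference between the female parents, and the F1 mice add only the spread. The slopes are therefore no evidence apart from the comparison of the female parents. Of 121 CGs of the window with 10 reads in all 6 mice, 0 passed an adjusted p of 0.05, and 7 had an unadjusted p below 0.05, as 16859 of 392207 CGs of the autosomes had. limma on the levels also called 0 of the 121, with 9 at an unadjusted p below 0.05, beside 28294 of the 392207. Over all autosomal CGs edgeR called 0.371% as rising with B6 chromosomes. At the 11 CGs of the cluster the limma slopes ran from -13.4 to 12.3 points per B6 chromosome with a median of 0.53, and the 95% intervals of the single slopes reached from -23.9 to 25.6 points. The lowest adjusted p at these CGs was 0.894 by edgeR and 0.611 by limma. Both tests had low power in simulated data with the same mice. There edgeR found 0 of 100 CGs that differed by 40 points between the parents and 53 of 100 that differed by 80. In the same simulation limma found 0 of 100 at either size. The simulated CGs had middle levels and 1 fixed spread, unlike the data, in which limma called 484 of the 392207 CGs. Its power in the data is thus not known from the simulation, and its 0 calls in the window do not show that such differences are absent.

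The pairs of mice are given as a description, since those with the DBA male reuse the values that chose the CGs. The 7 pairs with this mouse, which include the male parents, gave 91 calls in 93 tests at the 15 CGs, where 0.458% of autosomal CGs were called in those pairs. The 21 pairs without it gave 0 calls in 255 tests, with 0.293% of autosomal CGs called. Likewise as a description, over the autosomes the DBA male lay more than 50 points below each of the 7 other mice at 30 CGs, or 0.0173% of 173739. Of these, 9 were a run of CGs in the Hspa1l fragment itself. The B6 male lay as far below all others at 53 CGs, with no run longer than 2. Of the cytosine calls in reads with a SNP in the window, 0.585% were sorted to B6 in the DBA male, 0.504% in the DBA female and 99.7% in the B6 male. A read can hold many such calls, so these are not shares of reads. Of the non-CG calls of the fragment 0 of 1353 were methylated in the DBA male, and 0% to 0.984% in the 8 mice.

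The number of reads in the DBA male fell at the cytosines where Hspa1a and Hspa1b hold another base than Hspa1l. These positions were examined after the values had been seen. They are C73A in Hspa1a and C73G in Hspa1b, and G166C in both, with the Hspa1l base first and positions counted from 1 at the 5′ end of the fragment. The counts hold only reads that show C or T at a cytosine (G or A for the minus strand, in plus-strand letters). On the plus strand, in the DBA male, 92 reads were counted at the nearest shared cytosine before position 73 and 11 at position 73, so that 12.0% of the reads were kept (exact 95% interval 6.12% to 20.4%). The B6 male, whose reads reached as far, kept 94.6% (88 of 93), and the B6 female (105 reads), the DBA female (59 reads) and the BXD male (143 reads) kept 100%. The reads of the BXD female and of both DXB mice ended before this position.

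On the minus strand, at position 166, the DBA male kept 2 of 30 reads, or 6.67% (0.818% to 22.1%). There the B6 male kept 81.8% (18 of 22), the BXD female 96.4%, the DXB female 87.9%, the DXB male 86.8%, and both female parents and the BXD male 100%. At the 20 minus-strand cytosines within reach that the 3 genes share, the DBA male had 30 reads throughout. The mean methylation level of the called CGs in the DBA male was 18.3% on the plus strand, where it kept 12.0% of its reads, and 6.25% on the minus strand, where it kept 6.67%. The DBA female kept 100% of its reads at both positions. The counts do not record which base the uncounted reads carried, and the part of reads from the other Hsp70 genes in the low levels was not tested.

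**Figure D2:**
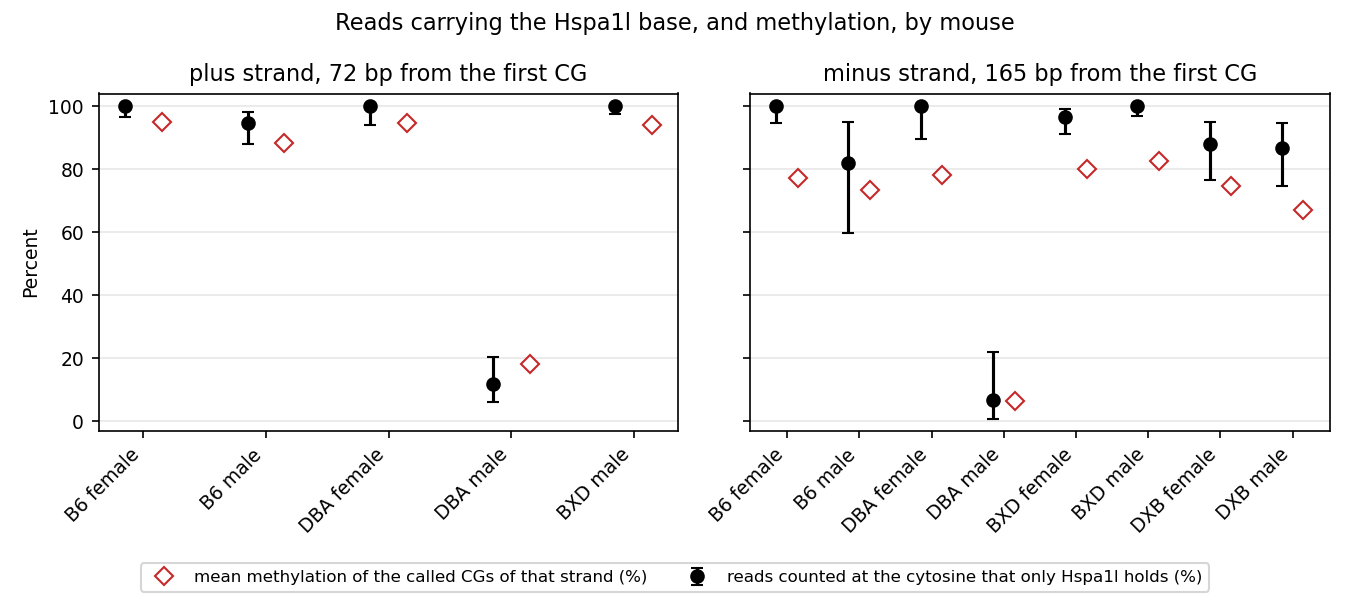
Percent of reads counted at the cytosine where Hspa1a and Hspa1b differ from Hspa1l (black, with exact 95% binomial intervals) and mean methylation of the called CGs of that strand (red diamonds), by mouse, for the plus strand (5 mice whose reads reach it) and the minus strand (8 mice). The DBA male keeps 12.0% and 6.67% of its reads, and all other mice keep at least 81.8%.

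The reach of the reads differed between libraries. On the plus strand the last cytosine with reads was 96 bases from the fragment start in both female parents and the BXD male, 73 in both male parents, and 49 in the BXD female and both DXB mice. Within the coding part of Hspa1a itself 0 CGs had 10 reads in any mouse. Of its 76-base stretches, 75.0% also occur in Hspa1b, and the study kept only reads with a unique position.

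Outside the Hspa1l fragment no CG of the window was called between parents of either sex. The differences ran from -27.0 to 38.0 points at 84 CGs in males and from -48.0 to 38.5 points at 256 CGs in females, both with a median of 0. Between the females, 6 CGs passed Fisher's exact test with an adjusted p below 0.05, where 1.42% of all CGs of the genome did, and none of the 6 lay in the Hspa1l fragment. They were 4 CGs of Hspa1a, 1 of D17H6S56E-5 and 1 of Msh5, and all 6 were higher in the B6 female. The plot of differences against distance shows the male calls as a single column.

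**Figure D3:**
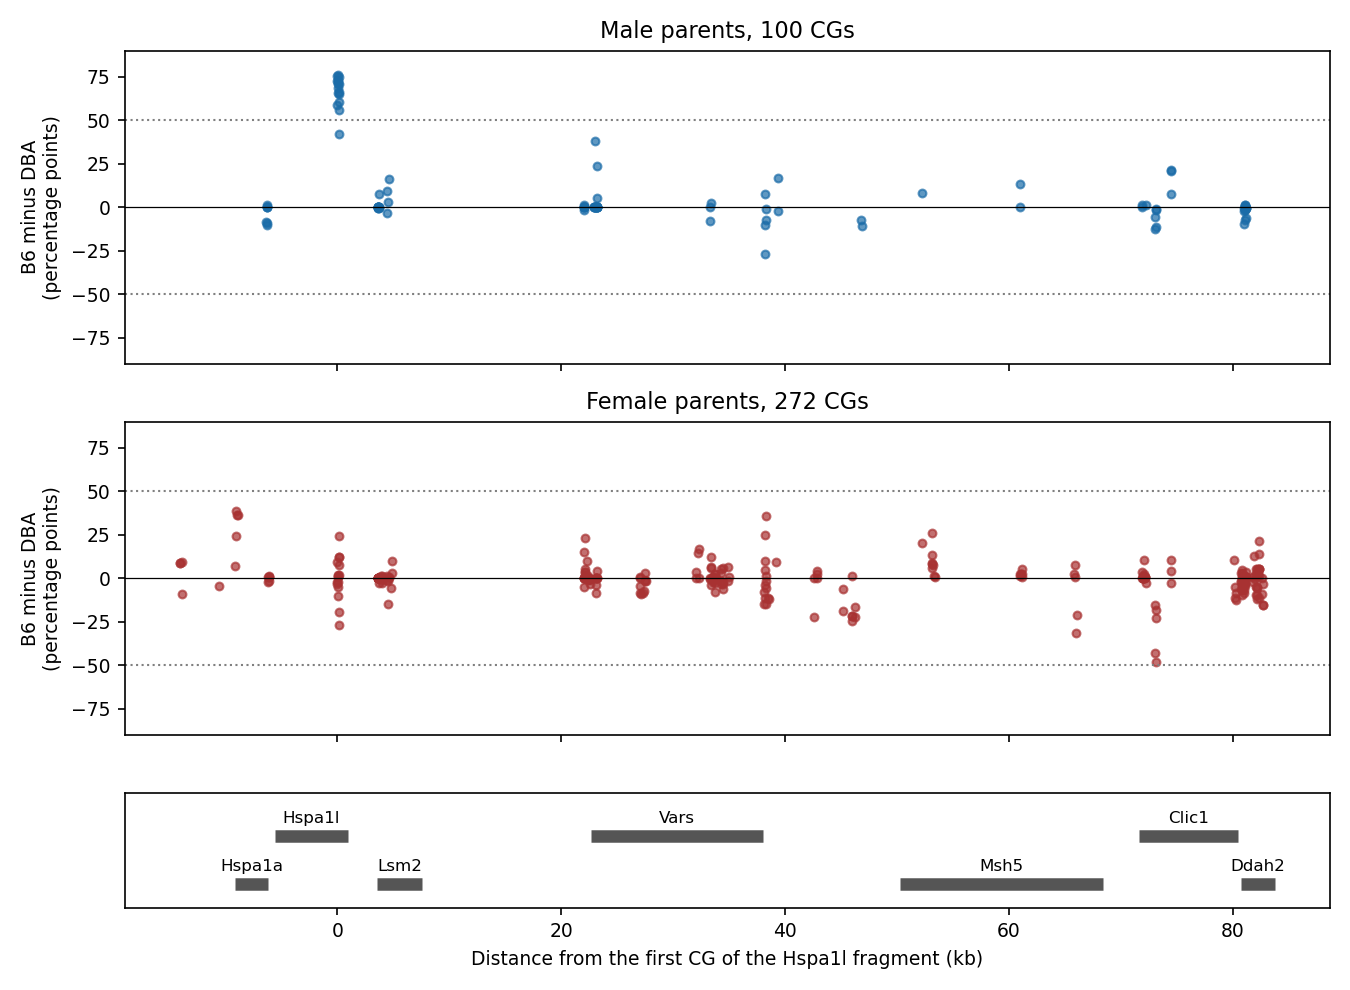
B6 minus DBA difference (percentage points) of each CG with 10 reads in both parents against its distance from the first CG of the Hspa1l fragment (kb), for 100 CGs of the male and 272 CGs of the female parents, with the 7 genes below and dotted lines at 50 points either way. Only the Hspa1l fragment of the male pair passes a dotted line.

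Hspa1a (ENSMUSG00000091971.1) lies at chr17:35106144-35109069 on the minus strand and Hspa1l at chr17:35109648-35116229 on the plus strand. At the start of Hspa1a and Hspa1l, which lie head to head and share a CG island, methylation was low in every mouse. Over the CGs from 1000 bases before to 500 after the start it was 4.32% ± 2.42 (SD, n = 8), from 1.29% to 8.30%, with 5 to 13 CGs in a mouse. The 3′ UTR of Hspa1a was higher. Its CG at cg35106339 had 77.3% in the B6 female (66 reads), 40.8% in the DBA female (142 reads), 21.4% in the B6 male (103 reads), 42.6% in the BXD female, 38.8% in the BXD male, 41.1% in the DXB female and 35.7% in the DXB male. The B6 female was the high mouse here, while the B6 male was the lowest of the 7 mice measured, the DBA male having 3 reads. This CG and 3 others of the same fragment made up 4 of the 6 that passed Fisher's exact test between the female parents, with differences of 24.3 to 38.5 points and adjusted p-values of 5.6e-05 to 0.0097. The slope on B6 chromosomes at cg35106339 was 18.2 ± 7.52 points (limma, SE), and its adjusted p was 0.698 by limma and 0.902 by edgeR.

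The island of Lsm2 (ENSMUSG00000007050.10, chr17:35118807-35122836, plus strand) was nearly free of methylation, with 2.85% ± 1.42 (SD, n = 8) around the start. In the 9 CGs of its 5′ UTR fragment with 10 reads in all 8 mice the level ran from 0% in the BXD female to 5.31% in the DXB female, with 0.794% in the B6 female, 3.47% in the B6 male, 1.06% in the female and 2.73% in the male DBA mouse. The rest of the gene was at 26.4% ± 8.18 (SD, n = 8), over 4 to 9 CGs. Parents differed at most by 16 points in males and 14.8 points in females in Lsm2.

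Vars (ENSMUSG00000007029.9, chr17:35137932-35153267, plus strand) had an unmethylated island and a methylated body. Around its most upstream start the level was 3.16% ± 1.97 (SD, n = 8), over 12 to 46 CGs in a mouse, and in the rest of the gene 80.3% ± 6.40. In the fragment of its coding exon at chr17:35148577-35148703 all 8 mice lay between 95% (B6 male) and 100% (BXD male). The largest difference between parents within Vars was 38.0 points in males, at cg35138288, with 70% of 10 reads in the B6 male and 32% of 25 reads in the DBA male. The B6 female had 51.4% of 35 reads and the BXD male 8.33% of 36 reads there, and the other 4 mice had fewer than 10 reads. That CG is in the 5′ UTR of Vars, at a cut MspI site.

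D17H6S56E-5, whose start overlaps that of Vars on the opposite strand, held the CG with the lowest p of the window in the slope on B6 chromosomes by edgeR. At cg35137556 the level was 9.84% in the B6 female, 12.0% in the B6 male, 0% in the DBA female, 3.70% in the BXD female, 0% in the BXD male, 0% in the DXB female and 1.72% in the DXB male. Both B6 mice were above the 5 other mice measured. The adjusted p (edgeR) was 0.0644 with all 6 mice, 0.0212 without the BXD female, 0.0431 without the BXD male, 0.0803 without the DXB female, 0.0923 without the DXB male and 0.0927 with at least 20 reads, and limma gave 0.669. Fisher's exact test between the female parents gave an adjusted p of 0.00121 at a difference of 9.84 points. This CG is part of a cut MspI site, and levels at other such CGs of low fragments varied. Over the 3 in the 5′ fragment of Lsm2 and the intron island of Ddah2 the mean was 9.75% in the B6 female, 30.6% in the B6 male and 33.3% in the DBA male. It was 6.38% to 12.5% in the 5 remaining mice, while the 15 CGs between the cut sites were at 0.304% to 2.80%. Lower levels were seen at cg35137803, the cut site at the other end of the fragment of cg35137556. It had 0% in the B6 female, 11.5% in the B6 male and 2.97% in the DBA female. At the cut-site CG cg35187340 of Clic1 the 7 mice measured lay between 0% and 5.13%. At the cut-site CG cg35137269 of D17H6S56E-5 the B6 and the DBA male were also the highest, with 22% and 21%. The B6 female was close to them at 20%, and the 5 other mice had 5% to 17.2%. The part of the cut site in the levels of cg35137556 was not tested.

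Msh5 (ENSMUSG00000007035.8, chr17:35165550-35183690, minus strand) was methylated along its measured CGs, at 80.4% ± 5.47 (SD, n = 8), over 3 to 20 CGs, and none of them lay near its most upstream start. At cg35168422, in a coding exon, the B6 female had 91.2% of 68 reads and the DBA female 65.1% of 86 reads, a difference of 26.1 points that passed Fisher's exact test (adjusted p of 0.0110). The B6 male had 82.6% of 23 reads, and the other 5 mice had fewer than 10 reads. One cytosine of its coding exon that is not part of a CG in the reference gave the only difference that passed the rule in both pairs of parents. It lies at position 35176317 on the plus strand, and the surrounding bases, chr17:35176303-35176332, are shown with this cytosine in capitals.

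Msh5: aaggttacaagtcaCttcttctctcatctt

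At this cytosine 0 of 70 reads were methylated in the B6 female and 0 of 145 in the B6 male, which allows levels of up to 5.13% and 2.51% (exact 95% intervals, counting error only). Of the DBA mice, the female had 90 of 95 reads methylated (94.7%, 88.1% to 98.3%) and the male 29 of 32 (90.6%, 75.0% to 98.0%). The BXD male had 45.1%, with 0 of 63 reads on the B6 chromosome and 64 of 79 (81%) on the DBA chromosome. The other 3 F1 mice had no reads there. The difference was thus between chromosomes within 1 F1 mouse as well as between strains, in the direction of DBA. Among all cytosines of the window, 1 of 167 CHH sites in males and 1 of 1121 in females were called, this one in both, and 0 of 109 and 0 of 452 CHG sites. Over the genome 0.0316% of CHH sites were called in males and 0.0291% in females, in either direction, and 0.0373% and 0.0247% of CHG sites. The site is called CHH from the reference, where the next base is T. The base that follows it on the DBA chromosome was not read here, so whether the cytosine is part of a CG there is not known from these values. The 3 nearest CGs passed the rule in neither pair where they were measured. At cg35176349 the B6 and DBA females had 97.1% and 94.7%, and the males had no reads. At cg35176270 the levels were 78.3% and 76.8% in those females and 88.3% and 75.0% in the males, a male difference of 13.3 points. At cg35176261 they were 85.7% and 83.2% in the females and 87.6% and 87.5% in the males.

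**Figure D4:**
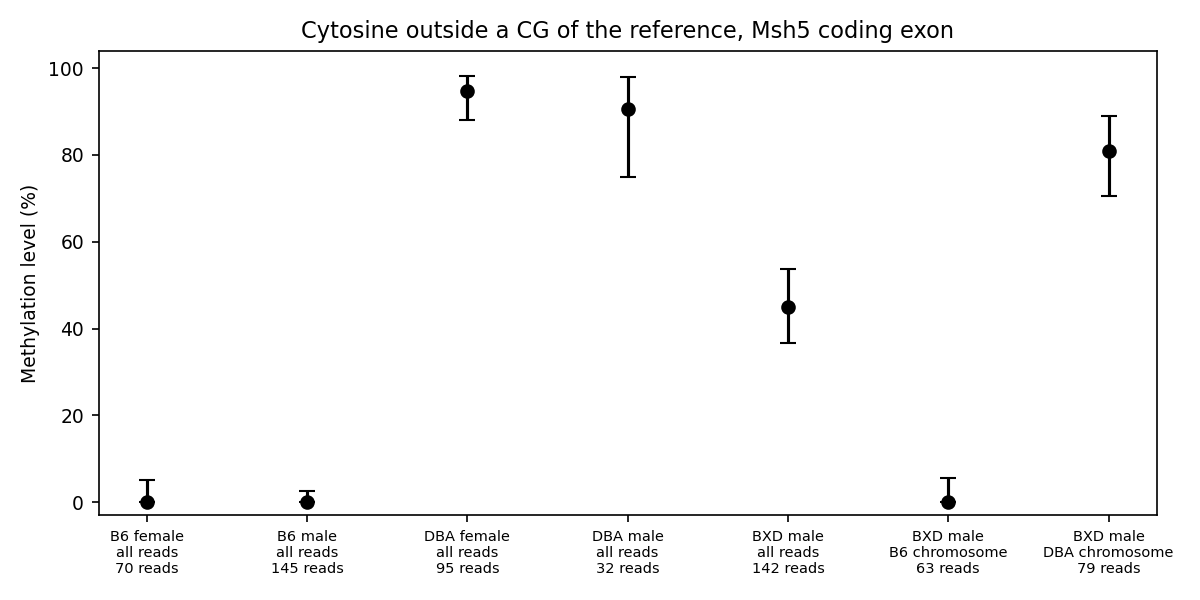
Methylation level (%) with exact 95% binomial intervals of the cytosine in the Msh5 coding exon that is outside a CG in the reference, for the 5 mice with reads and, for the BXD male, also for reads sorted to each chromosome. Both B6 mice and the B6 chromosome are at 0%, and both DBA mice and the DBA chromosome are at 81% or above.

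Clic1 (ENSMUSG00000007041.9, chr17:35186911-35195694, plus strand) had 2.24% ± 1.26 (SD, n = 8) around its most upstream start and 57.4% ± 5.78 in the rest of the gene. Around every annotated transcript start, internal ones included, Clic1 had 22.4% ± 8.59, Vars 41.9% ± 13.2 and Ddah2 36.9% ± 6.55 (SD, n = 8 each). These rest on 6 to 19, 32 to 90 and 24 to 68 CGs in a mouse, so the SD also holds which CGs were covered. Over the CGs measured in all 8 mice, Clic1 ran from 41.6% to 53.4% (6 CGs) and Vars from 25.4% to 32.8% (8 CGs). Ddah2 ran from 1.86% to 9.79% (9 CGs). In the first intron, cg35188371 had 33.8% in the B6 female (65 reads), 81.8% in the DBA female (11 reads), 53.2% in the B6 male, 64.7% in the DBA male, 56.1% in the BXD female, 60.3% in the BXD male, 48.1% in the DXB female and 65.0% in the DXB male. Its neighbour cg35188361 followed the same order of female parents, with 23.8% and 66.7%. The differences of -48.0 and -42.9 points between the females were the largest of the window in the direction of DBA, with few reads in the DBA female, and did not pass Fisher's exact test (adjusted p of 0.228 and 0.233). In males the same CGs differed by -11.5 and -5.60 points. The slopes on B6 chromosomes were -24.0 ± 4.06 and -21.4 ± 5.37 points (limma, SE), with adjusted p of 0.309 and 0.517 by limma and 0.731 and 0.518 by edgeR.

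Ddah2 (ENSMUSG00000007039.6, chr17:35195980-35199040, plus strand) was at 14.1% ± 3.43 (SD, n = 8) around its most upstream start and at 59.6% ± 12.2 in the rest of the gene, over 11 to 33 CGs that differed between mice. In the island fragment of its first intron the 9 CGs measured in all 8 mice were at 1.86% (DXB male) to 9.79% (DBA male). The cut-site CGs cg35196295 and cg35196461 set the upper end, with 39.7% and 36.8% in the DBA male and 29.9% and 30.6% in the B6 male, while the 7 CGs between them were at 0.658% to 3.11% in the DBA male. Parents differed at most by 9.72 points in males and 21.3 points in females in Ddah2. By limma the lowest p of the window in the slope on B6 chromosomes was that of cg35197626 in a Ddah2 coding exon, where the B6 female had 81.3%, the DBA female 60% and the F1 mice 71.4% to 75.5%, and its adjusted p was 0.170. At cg35197626 the B6 male, which was not in the fit, had 66.7% of 12 reads, below every F1 mouse. The DXB female had 14 and the DXB male 18 reads there, and the DBA male had none. In the plot of fragments by mouse, the 10 fragments beside that of Hspa1l placed the DBA male from 20.4 points below the mean of the other 7 mice to 18.3 points above it. The lowest place was in a fragment of a Clic1 intron and coding exon, the highest between Vars and D17H6S56E-3.

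**Figure D5:**
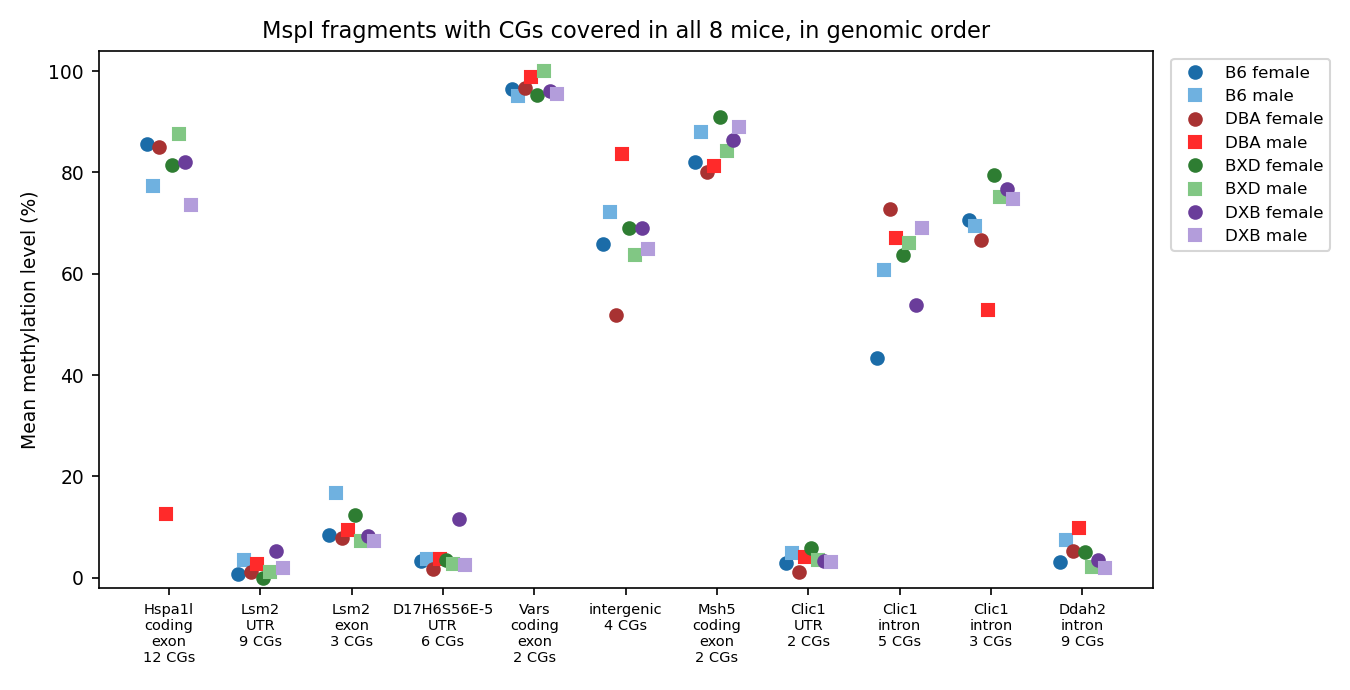
Mean methylation level (%) over the CGs with 10 reads in all 8 mice, for each of 11 MspI fragments of the window in genomic order, 1 point per mouse, with circles for females and squares for males. The DBA male lies at 12.5% against 73.6% to 87.7% in the Hspa1l fragment. It also lies outside the range of the others, by fewer points, in the intergenic, the last Clic1 and, through its cut-site CGs, the Ddah2 fragments. The last Clic1 fragment is labelled by its intron CG, and its other CGs are in a coding exon.

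Sorted reads of the F1 mice compared the 2 parental chromosomes within an animal at 21 CGs of Msh5, Clic1 and Ddah2, in 39 comparisons of a CG and a mouse. None was called, and the differences of the B6 minus the DBA chromosome ran from -20.6 to 25.0 points. Over the genome 5.46% of such CGs were called higher on the B6 chromosome in the BXD female, 4.44% in the BXD male, 5.76% in the DXB female and 5.57% in the DXB male. At 3 CGs of the Clic1 3′ end all 4 F1 mice could be compared, and the mean differences were -2.26, -1.61 and -4.18 points, with exact sign-flip permutation p-values (two-sided) of 0.75, 0.875 and 0.625, where 4 mice cannot reach 0.05. These values rest on 49 to 92 reads on a chromosome.

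Over the 59 CGs females had 39.4% ± 1.17 (SD, n = 4) and males 36.1% ± 6.33 (SD, n = 4), a difference of 3.29 points, given with no test since the Hspa1l CGs of the DBA male are among them. Without the Hspa1l fragment females had 28.1% ± 1.99 and males 29.3% ± 1.22 (SD, n = 4 each), a difference of -1.17 points that did not pass a two-sided exact permutation test (p = 0.343, with 0.0286 the smallest p that 4 against 4 mice allow). With the female and male of each strain or cross as a pair, the differences of female minus male without the fragment were -4.52 points in B6, -3.19 in DBA, 2.06 in BXD and 0.957 in DXB (exact sign-flip permutation p = 0.5, with 0.125 the smallest p for 4 pairs). BXD mice were 1.37 points above DXB mice with the fragment and -0.017 points apart without it, and 2 against 2 mice cannot give a p below 0.333.

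In the rest of the class III region, 41 of 48 listed genes were found in the annotation. Their CGs were counted gene by gene, so a CG in overlapping genes, such as Zbtb12 within C2, counts once for each. Between the male parents 4 of 499 such counts were higher in B6, 3 in Notch4 and 1 in Stk19, beside the 0.312% of the genome. Between the female parents 4 of 1245 such counts were higher in B6, 2 in Notch4, 1 in Stk19 and 1 in Bag6, beside 0.498% of the genome. In Ly6g6c 1 was higher in DBA. Notch4 encodes a receptor of vascular cells. Of the paralogs of the 7 genes, 26 of 27 were found, with 0 calls higher in B6 in 315 CGs in males and 1 in 969 CGs in females, in Lsm7, another LSm subunit. The shares of all CGs called higher in B6, 0.312% in males and 0.498% in females, apply to these counts too.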

How the data were processed

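RRBS libraries of 8 livers were sequenced by the authors, who used BS Seeker for alignment to mm9, kept uniquely placed reads and sorted those with SNPs by parental chromosome. Its version, the trimming and the handling of duplicates were "not given in the sources used here". For every cytosine, mouse and class of reads the authors deposited raw counts of reads with and without methylation, and the level as a fraction from 0 to 1. Tables of the authors' own comparisons, with fractions, p-values and scores, were not used, and 10 columns of single mice in them were left out.

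Counts of all classes were added, and levels are percentages of the sums. Means around a start or in the rest of a gene use the CGs with 10 reads in each mouse, which differ between mice. Each strand of a CG was 1 site with at least 10 reads. Both files and reference use NCBIM37 (mm9), and 100% of 1469643 CG sites fell on a C or G of it. Gene parts are from GENCODE vM1. Total cytosine calls per mouse ranged from 201 M to 846 M, with the fewest in the DBA male. Within the window 144 (DBA male) to 359 (B6 female) CGs had 10 reads. Read counts set the precision, and intervals hold counting error only.

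Parents were compared by the rule in the text, with Fisher's exact test beside it, adjusted over all CGs (Benjamini-Hochberg). The slope on B6 chromosomes was fitted with edgeR 4.0.16 (quasi-likelihood, 1 effect per mouse) on 392207 autosomal CGs and with limma 3.58.1 on the levels, in R 4.3.3. Other work used Python 3.11.15 with scipy 1.17.1, pandas 2.3.3, numpy 2.4.6, matplotlib 3.10.9 and numba 0.67.0. In simulated reads the rule found 191 of 200 CGs changed by 70 points in the male and 194 of 200 in the female parents, with 39 and 100 false calls among 323010 and 887174 CGs. Fisher's exact test found 178 and 165, with 0 and 1 false calls. Both mice of a simulated pair shared 1 level at unchanged CGs, so these false calls hold counting error only. Between the female and the male of a strain the rule called 861 of 320233 autosomal CGs in DBA and 2511 of 597204 in B6. The genes, lists and tests were chosen with earlier results of these data known, and all 7 genes, every called CG and any other gene of the window with a call were named, while further single CGs were named after their values were seen. The alternatives changed the read minimum, the difference required, the test, the read classes, the strands, the promoter width or the mice included.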

Additional observations from a re-analysis of the deposited data

Results flagged for a closer look

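Over the 11 called Hspa1l CGs measured in all 8 mice, B6 minus DBA was 66.8 points in the male parents, whose values chose these CGs, and -0.50 points in the female parents. The female value was near 0, and over all 15 called CGs the female median was 1.07 points. The difference between the pairs was not tested, since it rests on 1 mouse on each side and the low levels on the DBA male alone. That mouse kept only 11 of 92 and 2 of 30 reads at the cytosines where Hspa1a and Hspa1b hold another base. The other mice whose reads reached them kept at least 81.8%. The part of reads from those genes in the low levels was not tested.

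Of 36 groups of 4 mice examined for a value far from the other 3, 4 had one, where chance gives about 1 in 20. Over all 59 CGs the DXB male was at 37.7%, below 40.1% and above in the other F1 mice. In the Lsm2 exon fragment the BXD female was at 12.4% among the females, with 8.38% next. In the D17H6S56E-5 UTR fragment the DXB female was at 11.7% among the F1 mice, with 3.53% next, on 26 to 29 reads at a CG. In the Clic1 UTR fragment the BXD female was at 5.91% among the F1 mice, with 3.49% next. The rule did not flag the DBA male in the Hspa1l fragment, at 12.5% among the males, with 73.6% next.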

How the results depend on the processing

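Of 76 alternative values for 18 results, 62 stayed the same, 12 moved and 2 reversed direction, both for the sex difference without the Hspa1l fragment. A count stayed the same when it was equal or close in size to the main count. A level had to stay within the spread between mice, and the sex difference had to keep its direction and its side of p = 0.05 in the permutation test. With the Hspa1l fragment kept, that p only sorted the alternatives. It is no test of the sexes there, since the Hspa1l CGs of the DBA male are included. Sex differences from 0.168 to 10 points all counted as the same. Some of the 62 could not have moved, such as the look-up of female calls in males, mostly with 0 calls to look up. The male calls higher in B6 also numbered 15 at a minimum of 5 or 20 reads and by Fisher's exact test with the limit of 50 points kept. They were 15 also with reads without a SNP and with strands added. The read minimums, the SNP filter and the added strands could not have removed any of the 15. These CGs had at least 22 reads in the male parents, no read with a SNP, and reads on 1 strand only. Fisher's exact test used the same reads of the male parents that chose these CGs, so its 15 calls are no independent support. The male calls were 17 above 30 points and 0 without the Hspa1l fragment. With the B6 female in place of the B6 male they were 16. With the DBA female in place of the DBA male 1 was left (cg35153522, between Vars and D17H6S56E-3). The female calls higher in B6 were 0 with 5 or 20 reads, with Fisher's exact test and the limit of 50 points, and with reads without a SNP. They were also 0 with strands added and without the Hspa1l fragment, and 4 above 30 points. In either direction, with no interval rule, 7 CGs outside the fragment differed by more than 30 points between the females. The largest difference, -48.0 points, was higher in DBA. Fisher's exact test with no such limit gave 6 CGs. No male call recurred in the females with 5 or 20 reads, above 30 points, with Fisher's exact test and the limit of 50 points, with reads without a SNP or with strands added. The slope on B6 chromosomes called 0 to 1 CGs of the window when each F1 mouse was left out, and the 1 was cg35137556. F1 levels over the Hspa1l cluster ran from 78.7% to 83.5% when each F1 mouse was left out. The sex difference was 6.89 points with 20 reads and 10 with reads added, 0.168 to 4.62 when each mouse was left out, lowest without the DBA male, and -1.17 without the Hspa1l fragment. Paired within strain or cross it was 3.29 with and -1.17 without the fragment. The cross difference was -0.0169 without it. The mean promoter level of the 7 genes, 24.9% over every annotated transcript start, was 5.17% over the most upstream starts, where Msh5 had no measured CG and the mean is of 6 genes. Those 6 genes had 18.8% over every start. The replacements of a parent, the removal of the fragment, the pairing, the upstream starts and the mean without Msh5 were added after the data had been seen. Replicate numbers are 1 for the female and 2 for the male of each group and pair no other mice. Coverage limits the DBA male most, with 144 CGs, and minus-strand values of the fragment rest on 22 and 30 reads in the male parents.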
